A study of Homo sapiens with 9 samples.

Results

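Copper transport genes and metallothioneins were followed in MDA-MB-231, a human triple-negative breast cancer cell line, after depletion of the copper enzyme LOXL2. The set comprised 10 genes chosen by name because lysyl oxidases carry copper, out of 63657 genes in the deposited expression table. They were the copper transporters SLC31A1 and SLC31A2, the chaperones ATOX1 and CCS, the copper pumps ATP7A and ATP7B, and the metallothioneins MT1E, MT1F, MT1X and MT2A. All 10 symbols matched a single Ensembl gene. Total RNA was sequenced from 2 shLOXL2 libraries, labelled as LOXL2 depletion by short hairpin RNA, and from 2 shControl libraries, labelled as control. The study also profiled oxidised lysine 4 of histone H3 (H3K4ox) and open chromatin, whose peak positions were not analysed here. The RNA labels give no hairpin sequence, time or clone. They also leave unsaid if the replicates were grown separately, so a p-value here reflects variation between libraries that may be technical.

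Copper enters human cells mainly through the transporter encoded by SLC31A1 (CTR1) and is handed on by small chaperones, since the free ion is toxic. ATOX1 brings it to ATP7A and ATP7B, which pump it into the trans-Golgi network, where secreted enzymes such as the lysyl oxidases receive it, and out of the cell when copper is in excess. Metallothioneins are short, cysteine-rich proteins that bind zinc and copper, and their genes are switched on by the zinc-sensing factor MTF1 through metal response elements.

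Expression was deposited as FPKM, fragments scaled to transcript length and to the mapped fragments of each library. It carries no read count, so the depth behind each value is unknown. How well levels compare between genes of unlike length was not tested. The hairpin target LOXL2 was measured at 15.2 and 12.1 FPKM in shLOXL2, against 85.5 and 84.5 FPKM in shControl, a log2 change of -2.56 ± 0.12 (SE, limma adjusted p = 0.0124). FPKM sums were 1330440 and 1369370 in shLOXL2 and 1244380 and 1221570 in shControl, and mitochondrial genes made up 22.8% and 22.1% of them in shLOXL2 and 20.4% and 18.5% in shControl. Of 6 markers of the line all 6 were detected, led by VIM, at 2092 FPKM in shLOXL2 and 2032 FPKM in shControl, and CD44. Of these 6, 2 fell, CD44 and EGFR, and 2 rose, MSN and CAV1. Of 8 luminal markers 5 reached a mean of 1 FPKM, led by KRT18 and KRT8, which rose (log2 0.36 and 0.30), while EPCAM fell (log2 -0.42) and the hormone receptor genes ESR1 and PGR stayed below 0.1 FPKM in every library. EGFR, MSN, CAV1, EPCAM, ESR1 and PGR were named after their values were seen. Of 9 fibroblast markers 2 reached a mean of 1 FPKM, COL1A1, which rose (log2 0.69, limma adjusted p = 0.0287), and PDGFRB, and no marker was at 0 in all libraries. The summed level of the list was 10.2 to 12.4 FPKM in shLOXL2 and 6.07 to 7.43 FPKM in shControl, most of it from COL1A1 and PDGFRB. The other 7 markers stayed below 0.5 FPKM in every library. Of 8 haematopoietic markers 2 reached that mean of 1 FPKM, CD14 and LYZ, with CD3E at 0 in all 4 libraries, and the sums were 2.96 to 3.68 FPKM in shLOXL2 and 3.59 to 4.06 FPKM in shControl. The part of other cells in the results below was not tested.

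Mean levels of the 10 genes ran from 0.839 FPKM for MT1F to 699.5 FPKM for MT2A, and 1 of the 9 genes tested changed. MT1E rose in shLOXL2 cells, and none of the other 8 genes tested passed the threshold in either direction. The test was limma's moderated two-sided test on log2(FPKM + 1), run over 16987 genes whose mean reached 1 FPKM. P-values were adjusted by Benjamini-Hochberg over all of them, and genes below 0.05 were called. MT1F, at a mean below 1 FPKM, was not tested. Calls were made for 16.9% of all tested genes, 8.35% upward and 8.54% downward (1419 and 1450 genes, against 1025 and 2175 with libraries set to an equal FPKM sum outside mitochondrial genes), so that 1 call among 9 tested genes, or 11.1%, was no more than the share over the transcriptome. An unadjusted p below 0.05 was found for 3 of the 9, MT1E, ATP7A and MT2A, and for 35.9% of all tested genes. The median log2 change of these 9 genes was 0.09, against -0.0041 over all tested genes, and their median absolute change was 0.09, against 0.18. All libraries are bulk RNA, in which fewer cells expressing a gene and less RNA per cell cannot be told apart.

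**Figure D1:**
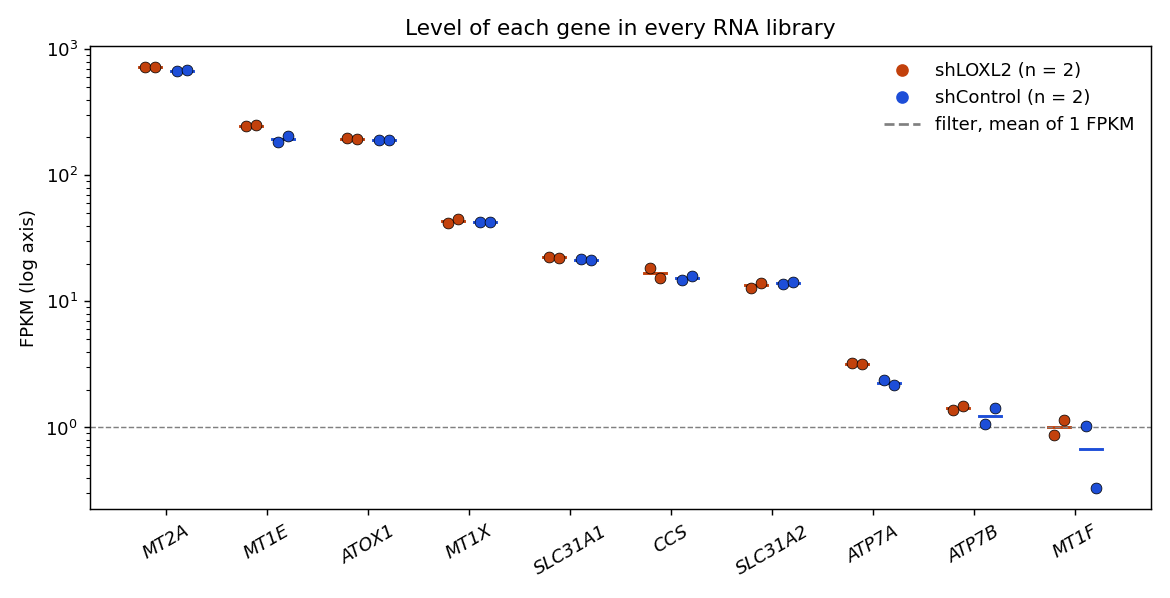
FPKM of the 10 genes on a log axis, in order of mean level, with 1 point per library, shLOXL2 left of shControl, a bar at each group mean and the dashed line at the filter of 1 FPKM. Levels run from 672 to 725 FPKM for MT2A down to 0.328 to 1.14 FPKM for MT1F, and the order of the genes hardly differs between the groups.

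The order of levels was nearly the same in every library. MT2A came first, followed by MT1E and ATOX1, MT1X, SLC31A1, CCS, SLC31A2, ATP7A, ATP7B and MT1F. The ranges over the 4 libraries did not overlap between neighbours in this order, except for MT1E with ATOX1 and for ATP7B with MT1F. MT1E and ATOX1 changed places in shControl replicate 1, where MT1E stood at 184.8 FPKM and ATOX1 at 191.2 FPKM. In the other 3 libraries MT1E was the higher. The level of ATP7A, averaged over the 4 libraries, was 2.73 FPKM, and that of its chaperone ATOX1 was 193 FPKM.

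Neither gene of the SLC31A pair passed the test. SLC31A1 (ENSG00000136868), which encodes the high-affinity copper importer of the plasma membrane, stood at 22.7 and 22.1 FPKM in shLOXL2, against 21.7 and 21.3 FPKM in shControl. Both shLOXL2 libraries lay above both shControl libraries, but by a small margin. On the log2 scale the difference was 0.06 ± 0.04 (limma's moderated SE, 2 libraries against 2). The 95% interval ran from -0.05 to 0.17 (limma adjusted p = 0.351). SLC31A2 (ENSG00000136867), whose product CTR2 resides mainly on internal membranes, stood at 12.9 and 14.0 FPKM in shLOXL2, against 13.8 and 14.1 FPKM in shControl. The groups overlapped, at a log2 change of -0.05 with a 95% interval from -0.23 to 0.12 (limma adjusted p = 0.575). Both genes lie on chromosome 9, with FKBP15 between them in the RefSeq order. FKBP15 averaged 12.9 ± 0.192 FPKM in shLOXL2 and 11.5 ± 0.357 FPKM in shControl (SD, n = 2 each, limma adjusted p = 0.110). FKBP15 overlaps SLC31A2 in RefSeq, and since no source used here states whether counting respected strand, reads of the overlap could not be assigned and the value of SLC31A2 is uncertain to that extent.

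Neither chaperone gene passed the test, ATOX1 with a narrow interval and CCS with a wider one. ATOX1 (ENSG00000177556 on chromosome 5), the chaperone of the ATP7 pumps, stood at 196 and 193 FPKM in shLOXL2, against 191.2 and 191.5 FPKM in shControl. The groups did not overlap, yet the log2 change was only 0.03, with a 95% interval from -0.06 to 0.11 (limma adjusted p = 0.549). An antisense gene, ATOX1-AS1, overlaps ATOX1, and reads from it could not be told apart. CCS (ENSG00000173992 on chromosome 11), the chaperone that loads copper into superoxide dismutase 1, stood at 18.3 and 15.4 FPKM in shLOXL2, against 14.9 and 15.8 FPKM in shControl. Replicate 1 of shLOXL2 was the highest and the other 3 libraries were alike. Its log2 change of 0.12 had a 95% interval from -0.18 to 0.42 (limma adjusted p = 0.445), and it was 0.0042 without that library. SOD1, the recipient of copper from CCS and named here for that role outside the rule for named genes, stood at 300 and 313 FPKM in shLOXL2, against 332 and 336 FPKM in shControl. Both shLOXL2 libraries were lower, at a log2 change of -0.12 that did not pass (limma adjusted p = 0.109).

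The copper pump genes were the lowest of the transport genes. ATP7A (ENSG00000165240 on chromosome X), which loads copper onto lysyl oxidases in the trans-Golgi network and is mutated in Menkes disease, stood at 3.22 and 3.17 FPKM in shLOXL2, against 2.37 and 2.16 FPKM in shControl. Both shLOXL2 libraries were above both shControl libraries, and the means differed by a ratio of 1.41. The log2 change of 0.36 ± 0.09 (SE, n = 2 per group) had a 95% interval from 0.10 to 0.62 and did not pass (limma adjusted p = 0.0790). The call depended on the fit. ATP7A passed with a variance prior without a trend (limma adjusted p = 0.0493) and among protein-coding genes alone (limma adjusted p = 0.0202). In these fits 5.45% and 19% of all tested genes rose. In the other fits of all 4 libraries that tested it, ATP7A did not pass. Its limma adjusted p there ran from 0.0597 with a robust variance prior to 0.208 without a filter. ATP7B (ENSG00000123191 on chromosome 13), the pump of bile and secretory copper that is mutated in Wilson disease, stood at 1.37 and 1.47 FPKM in shLOXL2, against 1.06 and 1.42 FPKM in shControl. The groups overlapped, since shControl replicate 2 lay between the shLOXL2 libraries, and the 95% interval of the log2 change ran from -0.34 to 0.58 (limma adjusted p = 0.629). That interval was the widest of the 9 tested genes, and the change was 0.0022 without shControl replicate 1. RefSeq places PGAM4, among others, within ATP7A and TMEM272 across ATP7B, so these low values may hold reads of other genes.

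The metallothioneins form a cluster on chromosome 16, and the data describe which of its genes these cells use. Of 15 metallothionein genes and pseudogenes of the cluster with a row in the table, 6 were listed at 0 FPKM in all 4 libraries, namely MT4, MT1M, MT1JP, MT1CP, MT1B and MT1H. A mean of 1 FPKM was reached by 4, MT2A, MT1E, MT1X and MT1A. A listed 0 can be a failed estimate, since EEF1A1, used by every cell, also stood at 0 in all libraries. The summed level of the 15 genes was 1013 and 1028 FPKM in shLOXL2, against 910 and 941 FPKM in shControl. Both shLOXL2 sums were the higher ones, at 1021 ± 10.8 FPKM in shLOXL2 and 926 ± 22.2 FPKM in shControl (SD, n = 2 each). The two-sided exact permutation p was 0.333, the smallest that 2 libraries against 2 allow. The difference depended on scaling. With libraries set to an equal FPKM sum outside mitochondrial genes, a comparison added after seeing the data, the sums were 1006 and 983 FPKM in shLOXL2, against 936 and 965 FPKM in shControl, and the ratio of the means was 1.05 in place of 1.10. Members of the family are near-identical in sequence, so reads may have been split between them, and the value of each single gene is uncertain for that reason.

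**Figure D2:**
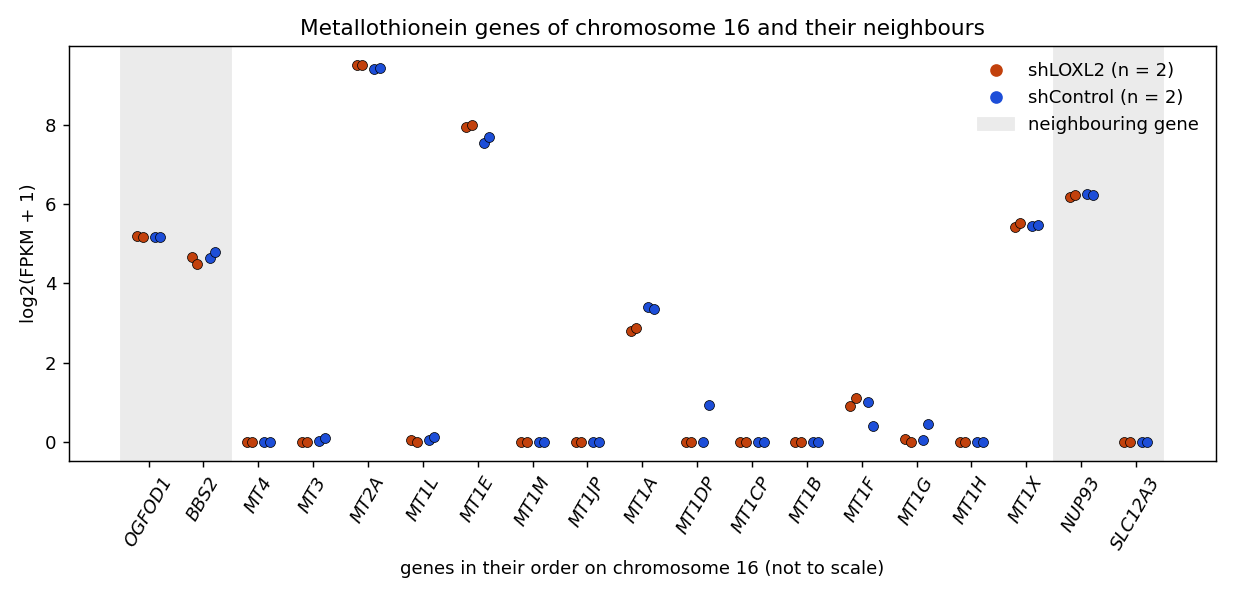
Log2(FPKM + 1) of the metallothionein genes of chromosome 16 in their RefSeq order, with the nearest 2 protein-coding genes on either side shaded, 1 point per library and shLOXL2 left of shControl. MT2A, MT1E and MT1X stand out, MT1A sits lower in shLOXL2, and most of the other metallothioneins lie at or near 0 between neighbours such as OGFOD1 and NUP93 that are expressed.

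MT2A (ENSG00000125148), the most abundant metallothionein, stood at 719 and 725 FPKM in shLOXL2, against 672 and 683 FPKM in shControl. The groups did not overlap, and the ratio of the means was 1.07. Its log2 change of 0.09 ± 0.03 (SE, n = 2 per group) had a 95% interval from 0.0033 to 0.18 and did not pass (limma adjusted p = 0.131). It was 0.012 with quantile normalization (limma adjusted p = 0.810) and 0.017 with an equal FPKM sum outside mitochondrial genes (limma adjusted p = 0.713). MT1X (ENSG00000187193) stood at 41.7 and 44.8 FPKM in shLOXL2, against 42.8 and 43.0 FPKM in shControl. The shControl values lay between the shLOXL2 values, and the interval of the log2 change, from -0.14 to 0.16, was centred near 0 (limma adjusted p = 0.902). MT1F (ENSG00000198417) was low and variable, at 0.866 and 1.14 FPKM in shLOXL2, against 1.02 and 0.328 FPKM in shControl. Fitted without a filter on low values, its log2 change was 0.29 with a 95% interval from -0.50 to 1.08 (limma adjusted p = 0.613).

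MT1E (ENSG00000169715), another zinc- and copper-binding metallothionein, stood at 245 and 251 FPKM in shLOXL2, against 184.8 and 205 FPKM in shControl. Both shLOXL2 libraries lay above both shControl libraries, and the shControl pair differed more between themselves than the shLOXL2 pair. The means were 248 ± 3.90 FPKM in shLOXL2 and 195 ± 14.1 FPKM in shControl (SD, n = 2 each), a ratio of 1.27. On the log2 scale the rise was 0.35 ± 0.06 (limma's moderated SE, 2 libraries against 2). The 95% interval ran from 0.16 to 0.54 (limma adjusted p = 0.0485). This adjusted p was just under the threshold. The call was lost without a filter on low values (limma adjusted p = 0.101) and with an equal FPKM sum outside mitochondrial genes (limma adjusted p = 0.0622). A pseudocount of 5 FPKM (limma adjusted p = 0.0509) and a variance prior without a trend (limma adjusted p = 0.0733) also lost it. The call held with a mean of at least 5 FPKM, a robust variance prior, a pseudocount of 0.1 FPKM and quantile normalization (limma adjusted p from 0.0325 to 0.0462). It also held among protein-coding genes alone (limma adjusted p = 0.0045), a fit in which 19% of all tested genes rose. With the replicate number as a block 0 of 16987 genes were called, so that fit could not set MT1E (limma adjusted p = 0.0832) apart. With 1 library left out, the log2 change ran from 0.28 without shControl replicate 1 to 0.42 without shControl replicate 2.

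MT1E made up a larger part of the metallothionein pool in both shLOXL2 libraries, which restates the FPKM values above and is no separate result. It contributed 24.2% and 24.4% of the summed metallothionein FPKM in shLOXL2, against 20.3% and 21.7% in shControl. MT2A contributed 71.0% and 70.5% in shLOXL2, against 73.8% and 72.5% in shControl. MT1X made up 4.11% and 4.36% in shLOXL2, against 4.70% and 4.57% in shControl. The ratio of MT1E to MT2A was 0.341 and 0.346 in shLOXL2, against 0.275 and 0.300 in shControl, again with a two-sided exact permutation p of 0.333, the smallest possible. Of the metallothioneins outside the 10 genes 2 were tested, and 1 of them, MT1A, differed in the other direction, at 5.99 and 6.30 FPKM in shLOXL2, against 9.64 and 9.30 FPKM in shControl. It fell by 0.55 ± 0.05 on the log2 scale (SE, n = 2 per group, limma adjusted p = 0.0198).

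Promoters were compared for the core of the metal response element, written TGCACNC or TGCGCNC and searched on both strands, in windows from 250 bases before to 50 bases after the annotated start (RefSeq, GRCh38.p14). Of the 10 genes, 7 had a window, and SLC31A2, MT1E and MT1F had none in the table used. Matches that overlapped were counted as 1 site. MT2A held 8 sites and MT1X 4, while 29.6% of all 35116 windows held at least 1 site and 0.339% held at least 4. The sequences of the 250 bases before the start are shown for both genes, and for MT1H, a gene of the same cluster, picked after its values were seen, that also held 8 sites while listed at 0 FPKM in all 4 libraries. Capitals mark the matches, and all 3 genes are on the plus strand. The windows are chr16:56608334-56608583 for MT2A, chr16:56682220-56682469 for MT1X and chr16:56669564-56669813 for MT1H.
MT2A: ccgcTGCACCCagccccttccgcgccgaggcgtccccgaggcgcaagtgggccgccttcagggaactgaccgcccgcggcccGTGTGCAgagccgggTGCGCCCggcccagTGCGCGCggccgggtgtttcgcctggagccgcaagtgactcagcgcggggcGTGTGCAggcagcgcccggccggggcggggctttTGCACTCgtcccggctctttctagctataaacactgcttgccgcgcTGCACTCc
MT1X: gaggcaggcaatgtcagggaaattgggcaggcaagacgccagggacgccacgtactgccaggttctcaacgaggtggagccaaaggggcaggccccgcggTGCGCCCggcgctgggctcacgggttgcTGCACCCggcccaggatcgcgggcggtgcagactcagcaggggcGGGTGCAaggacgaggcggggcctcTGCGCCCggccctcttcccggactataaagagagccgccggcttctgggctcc
MT1H: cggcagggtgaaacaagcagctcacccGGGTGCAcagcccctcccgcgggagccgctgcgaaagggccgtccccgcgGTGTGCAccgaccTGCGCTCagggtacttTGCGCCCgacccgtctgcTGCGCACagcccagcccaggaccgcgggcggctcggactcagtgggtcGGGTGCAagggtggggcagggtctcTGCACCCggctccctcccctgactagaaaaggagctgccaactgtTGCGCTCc

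In MT2A 7 of the 8 sites lay before the start, the nearest of them at -8, and in MT1X all 4 lay from -150 to -53, counting the first base of each match with -1 as the base just before the start. The TATA box letters TATAAA, searched after the levels were seen, began at -29 in MT2A and MT4 and at -30 in MT1X and MT1B. They were in 11.5% of all windows on either strand and not in that of MT1H. MT4 and MT1B, which hold these letters, were listed at 0 FPKM in all libraries, as was MT1H. A match is a description of letters only.

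**Figure D3:**
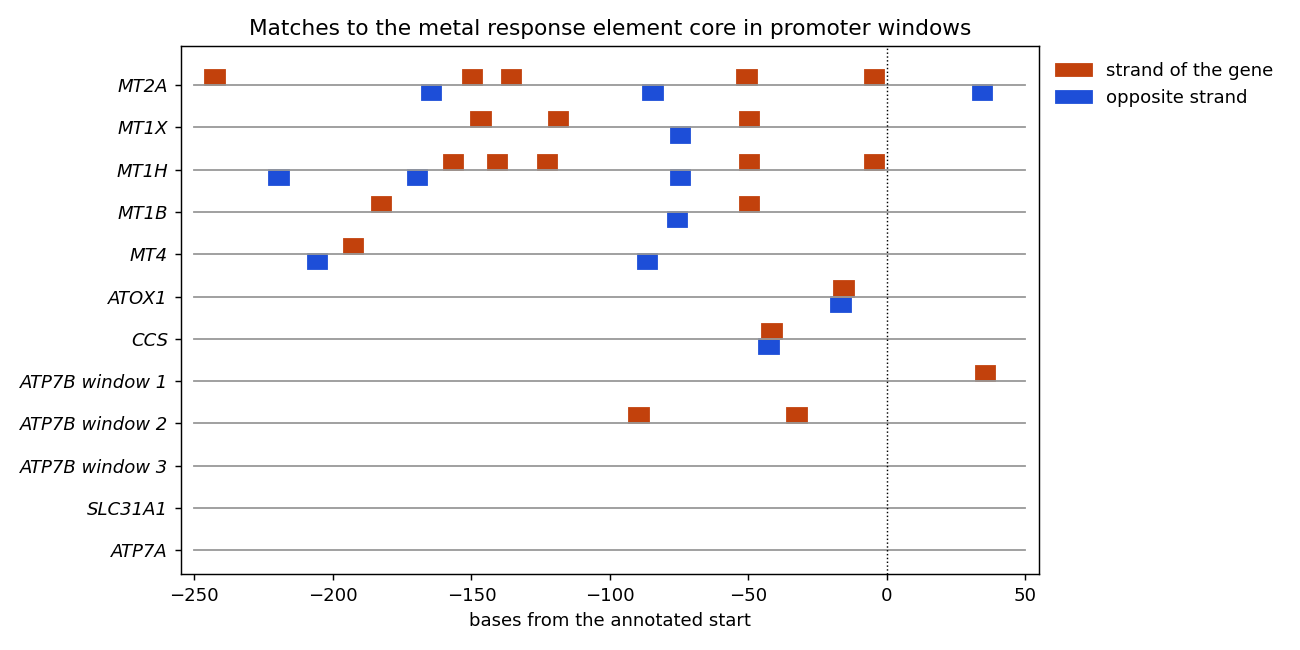
Matches to the metal response element core along each promoter window, with the horizontal axis in bases from the annotated start, orange boxes on the strand of the gene and blue boxes on the opposite strand. MT2A and MT1H hold 8 matches each, MT1X holds 4, ATOX1 and CCS hold an overlapping pair that counts as 1 site, and SLC31A1 and ATP7A hold none.

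Among the transport genes, matches were few. ATOX1 and CCS each held 1 palindromic site, GTGCGCAC, read on both strands, in the stretches chr5:151758633-151758662 (minus strand) and chr11:66593128-66593157 (plus strand), shown 5′ to 3′ with the site in capitals because both chaperone genes carry the same 8 letters. SLC31A1 and ATP7A held no match in their windows. ATP7B has 3 windows, with 1, 2 and 0 sites. The window with 1 site overlaps the window with 2, and its site is among those 2.
ATOX1: ccaggcctctaGTGCGCACtctcggaagcg
CCS: cagggccttgcGTGCGCACgcactaggagg

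**Figure D4:**
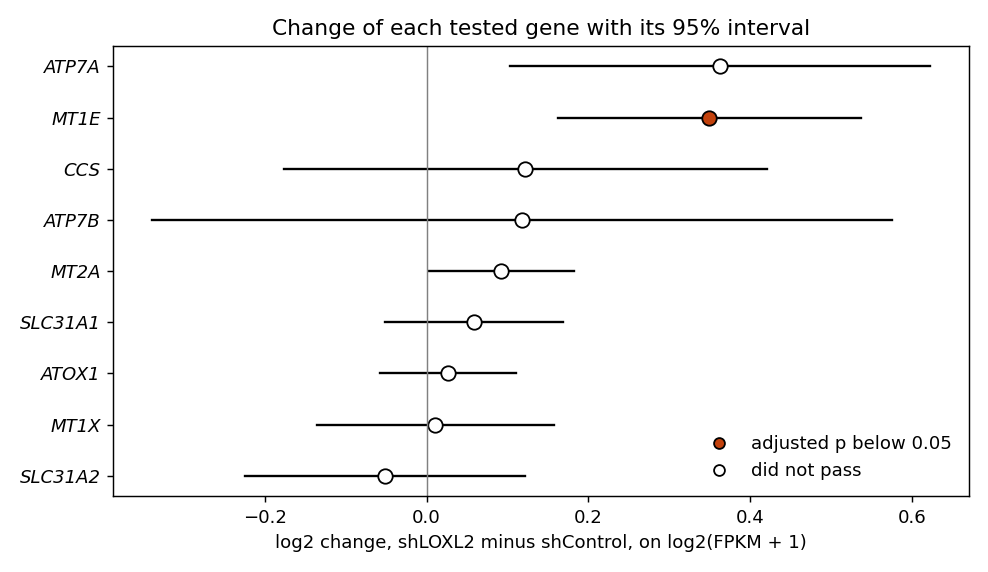
Log2 change of the 9 tested genes, shLOXL2 minus shControl on log2(FPKM + 1), with the 95% interval from limma as a line and a filled circle where the adjusted p was below 0.05. Only MT1E is filled, ATP7A has the largest change at 0.36 without passing, and SLC31A2 is the 1 gene with a negative value.

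Side by side, 8 of the 9 tested genes had a positive log2 change and 1 a negative one, against 49.3% positive over all tested genes. The groups did not overlap for 5 of the 9, all with higher shLOXL2 values, where 64.6% of all tested genes had groups apart and 31.8% had them apart with shLOXL2 higher. The signs of the smallest changes depended on scaling. With libraries set to an equal FPKM sum outside mitochondrial genes, a scaling that placed the median of all genes at -0.07, the log2 change was -0.013 for SLC31A1, -0.048 for ATOX1 and -0.063 for MT1X. That of SLC31A2 was 0.0064 without shLOXL2 replicate 1. Intervals of 5 genes, SLC31A1, SLC31A2, ATOX1, MT1X and MT2A, stayed within 0.25 of 0 on the log2 scale. For ATP7B and CCS the intervals were too wide to leave out changes of that size.

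Other genes of copper and zinc handling were counted from lists chosen by known function. Their counts stand beside 8.35% of all tested genes that rose and 8.54% that fell, 16.9% in all, and with 6 to 17 tested genes a list no count of 1 to 4 calls is read as particular to it. Of 14 tested genes of copper delivery to mitochondria and cytochrome c oxidase assembly, 2 fell and 0 rose, with a median log2 change of -0.12 against -0.0041 over all genes. COX11, which inserts copper into cytochrome c oxidase, stood at 22.5 and 23.5 FPKM in shLOXL2, against 35.4 and 37.7 FPKM in shControl (log2 -0.64, limma adjusted p = 0.0161). CMC2, a small protein of cytochrome c oxidase assembly, stood at 83.2 and 83.1 FPKM in shLOXL2, against 99.5 and 98.2 FPKM in shControl (log2 -0.25, limma adjusted p = 0.0252).

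Of 17 tested genes of other copper handling, 2 rose and 1 fell, near the 16.9% called over all genes. Their median log2 change was 0.06. STEAP3, a metalloreductase that reduces iron and copper, averaged 34.9 FPKM in shLOXL2 and 20.3 FPKM in shControl (log2 0.75, limma adjusted p = 0.0140). AP1S1, a subunit of the AP-1 adaptor complex that sorts the ATP7 pumps, averaged 90.1 FPKM in shLOXL2 and 66.9 FPKM in shControl (log2 0.43, limma adjusted p = 0.0309). RAB38, a small GTPase of cargo transport to melanosomes, averaged 8.95 FPKM in shLOXL2 and 14.5 FPKM in shControl (log2 -0.64, limma adjusted p = 0.0131).

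Of 11 tested copper enzymes, 2 rose and 2 fell, the falls being LOX and LOXL2, the hairpin target itself. Over all tested genes 8.35% rose and 8.54% fell. The median log2 change of the 11 enzymes was 0.205, against -0.0041 over all tested genes. SOD3, the extracellular superoxide dismutase that receives copper in the secretory pathway, stood at 13.1 and 11.9 FPKM in shLOXL2, against 7.83 and 8.19 FPKM in shControl. It rose by 0.59 ± 0.07 on the log2 scale (SE, n = 2 per group, limma adjusted p = 0.0240). The other enzyme that rose was LOXL4, a lysyl oxidase, with a log2 change of 0.51. LOX, the founding member of the family, had a log2 change of -0.86.

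Zinc transporters were listed beside the metallothioneins, which also bind zinc. Of 6 tested exporters of the SLC30 family 1 fell, SLC30A9, with a log2 change of -0.25, and 0 rose. Over all tested genes 8.54% fell and 8.35% rose, and neither this count nor that of the SLC39 family is read as particular. SLC30A1, a known target of MTF1 named outside the rule, stood at 10.3 and 9.69 FPKM in shLOXL2, against 8.26 and 8.23 FPKM in shControl (log2 0.25, limma adjusted p = 0.0589). Of 11 tested importers of the SLC39 family, SLC39A4 rose (log2 0.53) while SLC39A1 (log2 -0.51) and SLC39A8 (log2 -0.40) fell. The median log2 change was -0.16 for the tested exporters and 0.04 for the tested importers, against -0.0041 over all tested genes. MTF1 itself, also named outside the rule, varied between replicates, at 10.5 and 7.73 FPKM in shLOXL2, against 8.27 and 7.37 FPKM in shControl (limma adjusted p = 0.480).

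The list of metal-responsive transcription had 1 gene that rose and 2 that fell of 9 tested. Calls were made for 16.9% of all tested genes, and no count of the 3 lists here is read as particular. NFE2L2, the antioxidant transcription factor NRF2, rose (log2 0.22), while GCLC (log2 -0.54) and GCLM (log2 -0.26), the subunits of the enzyme that starts glutathione synthesis, fell. Of 14 tested genes tied to copper-induced cell death, NFE2L2 alone rose and 0 fell. Of 9 tested glucocorticoid-responsive genes, listed because glucocorticoids induce MT2A, 1 rose, ERRFI1 (log2 0.70), and 2 fell, FKBP5 (log2 -0.45) and TSC22D3 (log2 -0.30). Over these 3 lists the medians of the log2 change were -0.03, 0.0066 and -0.05, near that of all genes.

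**Figure D5:**
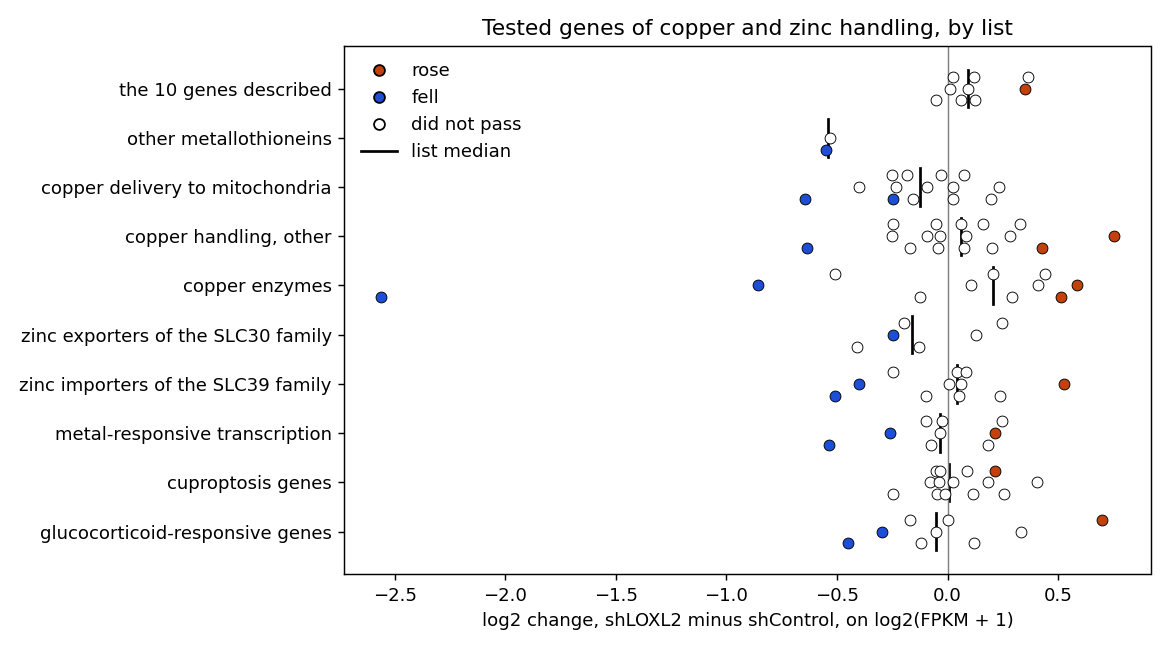
Log2 change of every tested gene by list, shLOXL2 minus shControl on log2(FPKM + 1), with orange circles for genes that rose, blue for genes that fell, open circles for genes that did not pass and a line at each list's median. The 9 tested of the 10 genes described lie from -0.05 to 0.36, with MT1E the 1 filled circle, while LOXL2 at -2.56 lies farthest out among the copper enzymes.

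Genes with the profile closest to MT2A over the 4 libraries, by Euclidean distance of centred log2(FPKM + 1), were CYBC1, HPS6 and MMADHC, at distances of 0.0067, 0.0083 and 0.0091. Those closest to SLC31A1 were SLC39A3, CDK7 and UBR2, at 0.0079, 0.011 and 0.012. With 4 libraries such likeness was common, since 1323 of the 8668 genes compared lay within 0.1 of MT2A and 1204 within 0.1 of SLC31A1.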

How the data were processed

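RNA-seq gene levels of 2 shLOXL2 and 2 shControl libraries were used. The authors deposited them as FPKM in 1 table of 63657 Ensembl genes, whose columns were matched to samples by condition and replicate number. The submitters' processing notes list Bowtie, Cufflinks and the build GRCh37 without roles, so the part of each in these values is not stated. The tool versions and the gene annotation are not given in the sources used here. Columns holding group means and a log2 ratio by the authors, 3 in all, were left aside. Depth is unknown, so no counting interval is given. The peak lists of the series use GRCh37 positions, for which no annotation was at hand, and were not analysed here.

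Symbols were matched for 39694 identifiers. Log2(FPKM + 1) was fitted with limma for 16987 genes whose mean over the 4 libraries reached 1 FPKM, using its two-sided moderated test, a prior variance that follows the mean level, and Benjamini-Hochberg adjustment at 0.05. Changes on that scale understate those of low genes. The 10 genes, the lists and the tests were chosen with earlier results of these data known. Named were the 10 genes, LOXL2, at most 4 called genes per list with the smallest adjusted p (the 2 highest where none was called and for marker lists), and the 3 genes nearest in profile to MT2A and to SLC31A1. Of 153 symbols in the lists, 151 matched. Alternatives were the pseudocount, filter, scaling, variance prior, replicate block, each library left out and, both chosen after seeing the data, a fit of protein-coding genes alone and a rescaled metallothionein sum. Fits used limma 3.58.1 in R 4.3.3, and other steps used pandas 2.3.3, scipy 1.17.1 and matplotlib 3.10.9 under Python 3.11.15.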

Additional observations from a re-analysis of the deposited data

How the results depend on the processing

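Among the 9 tested genes, 107 of the values under the alternatives kept their direction and their side of the threshold, mostly of genes not called. Of the others 9, all of MT1E, lost the call, 2, of ATP7A, gained one and 6 changed sign. The log2 change of MT1E was 0.34 with a pseudocount of 5 FPKM (limma adjusted p = 0.0509), 0.35 without a filter (0.101) or with a constant variance prior (0.0733), and 0.27 with an equal FPKM sum outside mitochondrial genes (0.0622), none of which passed. MT1E passed with a filter at a mean of 5 FPKM, a robust variance prior, a pseudocount of 0.1 FPKM, quantile normalization and protein-coding genes alone. With 1 library left out its log2 change ran from 0.28 to 0.42. Those fits assign the spread of the other group to the lone library. ATP7A, at 0.36, passed with a variance prior without a trend and with protein-coding genes alone, and in no other fit that tested it. Values of the opposite sign, none of them called, were -0.013 for SLC31A1, -0.048 for ATOX1 and -0.063 for MT1X with an equal FPKM sum outside mitochondrial genes and -0.028 for ATOX1 with quantile normalization. With 1 library left out, SLC31A2 ran from -0.11 to 0.0064, MT1X from -0.041 to 0.062, CCS from 0.0042 to 0.24 and ATP7B from 0.0022 to 0.23. MT2A, at 0.09 as reported, was 0.012 with quantile normalization. The cause of these differences was not tested.

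Of the 10 genes, 0 rose with a pseudocount of 5 FPKM, without a filter, with an equal FPKM sum outside mitochondrial genes or with 1 library left out, and 2 with protein-coding genes alone. In the fits with 1 library left out, 0 of the 10 genes passed limma's threshold. Of all tested genes, 1419 rose and 1450 fell in the reported fit, 601 and 542 without a filter, 2136 and 2178 with protein-coding genes alone, and 926 rose with a variance prior without a trend. With 1 library left out, 18 to 220 rose and 70 to 217 fell. With an equal FPKM sum outside mitochondrial genes 1025 rose and 2175 fell.

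With the replicate number as a block the log2 change of MT1E stayed at 0.35 (limma adjusted p = 0.0832), 0 of the 10 genes rose, and 0 of all genes rose and 0 fell by limma, with 5519 at an unadjusted p below 0.05. Deviations of same-numbered libraries from their group means correlated at -0.0013 over 16987 genes, so the numbers gave no sign of pairing. With 2 libraries per group and no read counts, changes as small as those of most of these genes could not be resolved.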

Other observations

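Metallothionein pseudogenes outside the 10 genes varied between single libraries. MT1DP stood at 0.902 FPKM in shControl replicate 2 and was listed at 0 in the other 3 libraries. MT1P1 stood at 0.466 FPKM in shLOXL2 replicate 1, against 2.21 FPKM in shLOXL2 replicate 2 and 2.12 and 2.14 FPKM in shControl. Among metallothioneins linked to other tissues, MT3, known from brain, stayed at 0.0718 FPKM or less, and MT1G at 0.378 FPKM or less.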
